A study of Macaca mulatta with 4 samples.

Results

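The genes described here are the ZNF zinc finger genes that rhesus macaque (Macaca mulatta) morulae express. They were chosen by symbol (ZNF, digits and at most 1 final letter, ZNF280A left out) and by a mean of at least 5 CPM over the 4 libraries, where CPM is a gene's estimated count per 1000000 counts of its library. The rule kept 238 of 333 ZNF genes, out of 21314 genes in the table, of which 14654 have a symbol. The choice used the mean level over all libraries and not the difference between groups. All the same, a gene silent in one group entered only if it was high enough in the other. Of the 238, 202 reached 5 CPM as a mean in both groups, 27 in AG alone and 9 in GG alone.

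The morula is the compacting ball of cells that precedes the blastocyst. The series compares androgenetic embryos (AG, nuclear genome from the father only) with gynogenetic embryos (GG, nuclear genome from the mother only), each with 2 RNA libraries amplified with a SMARTer low-input kit. No strain, parental animal, treatment or hour of collection is named for either group, and the number of embryos behind a library is ambiguous. Since nothing states that replicates came from separate parents, p-values measure the spread between these libraries, which may be technical. Totals ran from 14129608 to 29733977 estimated counts, so that 5 CPM corresponds to 70.6 to 149 counts. The pluripotency gene POU5F1 was present in all 4 libraries, at 180 to 473 CPM. Summed cumulus cell markers stayed under 1 CPM in each library, with FSHR at 0 throughout, and summed sperm markers reached at most 0.495 CPM, with PRM2 and ODF1 at 0 throughout.

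ZNF genes encode proteins with tandem zinc fingers, short loops around a zinc ion that read DNA bases and, in some members, bind RNA or protein. The most numerous class joins the fingers to a KRAB domain. KRAB recruits the corepressor TRIM28, which brings the histone methyltransferase SETDB1 and heterochromatin protein HP1, and many such proteins silence retrotransposons. Most arose by tandem duplication and stand in clusters, of which the largest in primates are on chromosome 19. Close copies share sequence, so the estimated counts of any single member may include reads of a relative.

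ZNF genes were lower in GG than in AG morulae far more often than the reverse. Of the 238 tested, 34 were called higher in AG, 2 were called higher in GG (ZNF706 and ZNF585A) and 202 were not called, at an adjusted p under 0.05 in edgeR's quasi-likelihood test across all 13227 tested genes. Called means called in that test wherever no other tool is named. In such bulk samples, fewer cells of a type and less RNA per cell cannot be told apart. In percent, 14.3% of ZNF genes were called higher in AG and 0.84% higher in GG. Over all tested genes the shares were 6.58% and 6.34%, and over the 8574 tested genes with a mean of at least 5 CPM they were 8.26% and 7.5%. Among the 202 ZNF genes that reached 5 CPM in both groups, 26 were higher in AG and 1 in GG.

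The shift was not limited to called genes. The log2 fold change (GG minus AG) was negative in 187 of 238 ZNF genes (78.6%), against 48.9% of all tested genes and 49.3% of those at 5 CPM or more. Its median over ZNF genes was -0.70, with quartiles of -1.26 and -0.08, a 1.62-fold higher level in AG for the median gene. Over all tested genes the median was 0.04. Both AG libraries lay above both GG libraries in 152 ZNF genes (63.9%), and both GG libraries lay above in 22 (9.24%). For all tested genes at 5 CPM or more, the same shares were 34.6% and 33.3%. At an unadjusted p under 0.05, called genes included, were 91 ZNF genes (38.2%), against 37.2% of tested genes at 5 CPM or more, so the number passing was close to the background. Of the 55 uncalled ones among them, 50 were lower and 5 higher in GG.

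**Figure D1:**
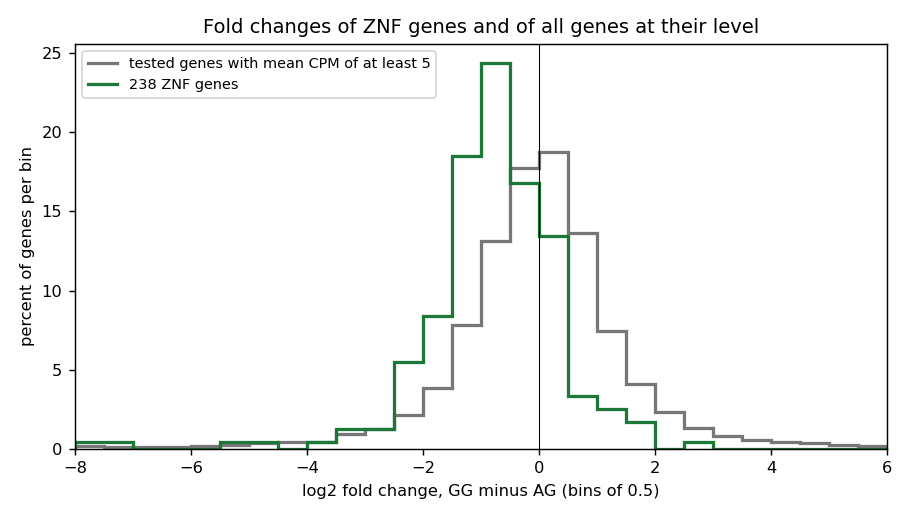
Percent of genes (y) in bins of 0.5 of the log2 fold change, GG minus AG (x), for the 238 ZNF genes (green) and for the 8574 tested genes with a mean of at least 5 CPM (grey). The ZNF curve peaks between -1 and -0.5 and the grey curve between 0 and 0.5; ZNF518B and the ends of the grey curve lie outside the axis.

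Each library gave the same picture. ZNF genes together took 1.37% and 1.17% of all counts in AG replicates 1 and 2. In GG replicates 1 and 2 they took 0.726% and 0.643%. The mean summed level in AG was 12720 CPM ± 1438 (SD, n = 2). In GG it was 6847 CPM ± 587 (SD, n = 2), 1.86 times lower. ZNF257 alone supplied 18.03% and 11.1% of the ZNF counts in AG and 7.25% and 4.68% in GG. Without it the ratio was 1.68.

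In the 4 pairs of an AG with a GG library, the median log2 ratio of CPM + 0.5 over ZNF genes lay between -0.76 and -0.63. Within a group it was -0.11 from AG replicate 1 to AG replicate 2 and -0.17 from GG replicate 1 to GG replicate 2. For all tested genes with a mean of at least 5 CPM, the medians of these within-group pairs were 0.14 and -0.003. Between groups they lay between -0.08 and 0.09. At least 2-fold lower levels in the GG library occurred in 73 to 95 ZNF genes per pair, and at least 2-fold higher levels in 8 to 14.

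**Figure D2:**
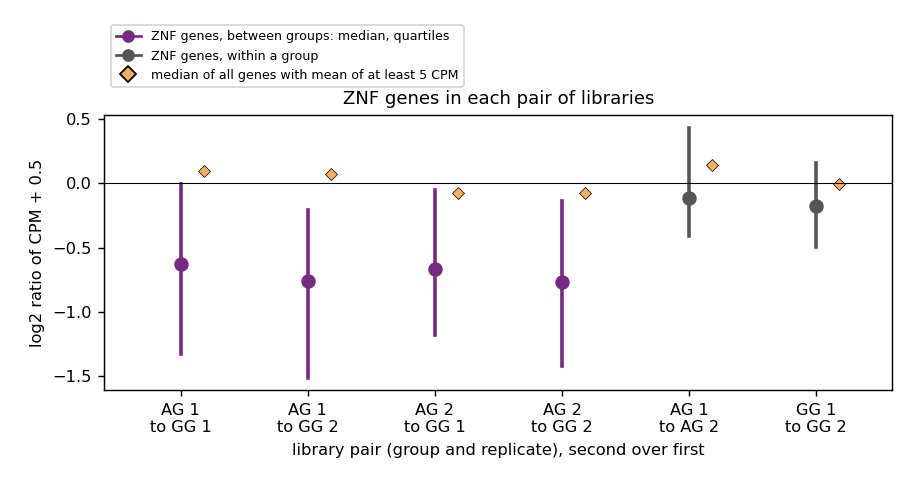
Log2 ratio of CPM + 0.5 (y) for ZNF genes in each pair of libraries (x), as the median (circle) and quartiles (bar), between groups in purple and within a group in grey; diamonds mark the median of all tested genes with a mean of at least 5 CPM. The 4 between-group medians lie between -0.76 and -0.63, and the within-group medians are -0.11 and -0.17.

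ZNF genes with more reads showed the larger shift, on a scale not corrected for transcript length. The median log2 fold change was -0.26 for the 59 with a mean of 5 to 10 CPM, -0.71 for the 129 between 10 and 50 CPM and -1.01 for the 50 above. Higher levels in AG were called for 3, 16 and 15 of them, and for 5.41%, 7.63% and 10.1% of all tested genes in these ranges. The median of all tested genes in the same ranges stayed between -0.01 and 0.05. Whether the ranges differ beyond chance was not tested, and fewer reads also leave less power to call a gene.

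The count of calls depends on the GG pair. Without GG replicate 1 or GG replicate 2, 3 ZNF genes were called higher in AG (ZNF518B, ZNF791 and ZNF679) and 0 higher in GG, when all tested genes gave 0.35% and 0.251% higher in AG and 0.501% and 0.351% higher in GG. Without AG replicate 1 the counts were 34 higher in AG (7.69% of all tested genes) and 3 in GG (8.05%). Without AG replicate 2 they were 73 (12.6%) and 6 (14.2%), and DESeq2 called 76 (12.9%) and 6 (12.2%).

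**Figure D3:**
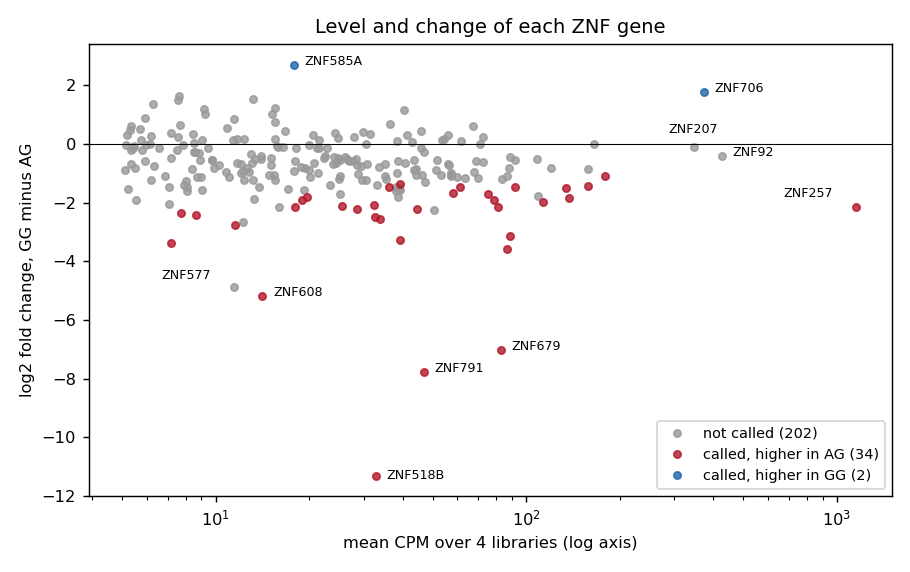
Log2 fold change, GG minus AG (y), against the mean CPM over 4 libraries on a log axis (x) for each of the 238 ZNF genes, with the 34 called higher in AG in red, the 2 called higher in GG in blue and the 202 others in grey. Most points lie below 0, and the fitted change of ZNF518B rests on 1 count in GG.

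The largest differences were in genes nearly silent in GG. ZNF518B, ZNF791, ZNF679 and ZNF608 had GG means under 5 CPM, so they entered through AG. ZNF518B (ENSMMUG00000017761), whose protein has been found with histone methyltransferase complexes, stood at 47.9 and 83.3 CPM in AG replicates 1 and 2. In GG it had 0 counts and 1 count, a ratio of AG to GG of 3485 (95% exact interval 625 to 137699, counting error only; edgeR adjusted p = 0.00488). ZNF518A, its closest relative by name, stood at 102 and 118 CPM in AG and at 78.9 and 68.9 CPM in GG, without a call (log2 fold change -0.54 ± 0.26 SE).

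ZNF791 (ENSMMUG00000016862), a KRAB zinc finger gene on chromosome 19, stood at 99.7 and 86.5 CPM in the AG libraries and at 0.234 and 0.572 CPM in the GG libraries. That is a 216-fold difference, a log2 fold change of -7.75 ± 0.56 SE (adjusted p = 0.00509). Of its neighbours among the members in the order along the chromosome, ZNF490 stood at 45.2 and 78.2 CPM in AG and at 58.0 and 24.8 CPM in GG. The groups overlapped, and it was not called. The neighbour on the other side, ZNF333, stood at 10.4 and 8.45 CPM in AG and at 3.87 and 4.78 CPM in GG (log2 fold change -1.09), without a call in edgeR or DESeq2.

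ZNF679 (ENSMMUG00000047155) stood at 212 and 116 CPM in AG and at 1.85 and 0.697 CPM in GG (a log2 change of -7.01 ± 0.68 SE, adjusted p = 0.00871). ZNF608 (ENSMMUG00000004409), a paralog of ZNF609, stood at 30.5 and 24.5 CPM in AG and at 0.609 and 0.841 CPM in GG (a log2 change of -5.19 ± 0.48 SE, adjusted p = 0.00837). ZNF609 itself, named after its values were seen, stood at 46.2 and 50.3 CPM in AG and at 26.3 and 17.4 CPM in GG. It was not called in edgeR (adjusted p = 0.0916) but was in DESeq2 (0.0245). In ZNF679 and ZNF608 every AG library was more than 20-fold above every GG library.

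Among called genes with a mean of at least 10 CPM, the 10 largest changes with AG higher also hold ZNF473 and ZNF91, described with their groups, and 4 genes whose GG level was low but not absent. ZNF735 stood at 202 and 119 CPM in AG and at 22.0 and 4.29 CPM in GG. ZNF616, a KRAB gene of chromosome 19, stood at 57.9 and 84.1 CPM in AG and at 11.7 and 2.69 CPM in GG. Both varied over 4-fold between the GG libraries, and the call of ZNF735 was lost without AG replicate 1 (adjusted p = 0.0560). ZNF45 stood at 17.2 and 23.0 CPM against 4.36 and 1.48 CPM, and ZNF114 at 71.7 and 44.2 CPM against 12.6 and 6.54 CPM. The GG mean of ZNF45 was under 5 CPM, so it entered through AG. Across ZNF735, ZNF616, ZNF45 and ZNF114 the log2 fold changes were -3.58 to -2.56 (adjusted p = 0.0325 to 0.0475). The genes named for the size of their change were also picked for groups that do not overlap.

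**Figure D4:**
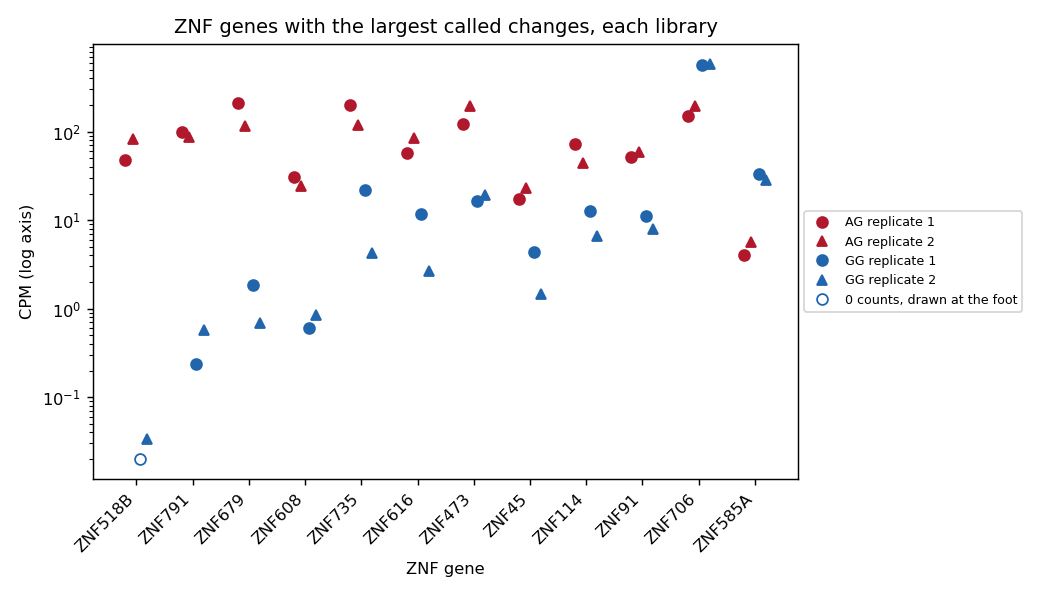
CPM on a log axis (y) in each library for the 12 ZNF genes (x) with the largest called changes and a mean of at least 10 CPM, AG in red and GG in blue, replicate 1 as circles and replicate 2 as triangles. The open circle stands for 0 counts; Genes were picked for groups that do not overlap, so the gap itself is no finding; GG is above AG in ZNF706 and ZNF585A.

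KRAB genes with known targets or history were next considered. Of 11 listed, 7 were members, and the identifiers of 4 were not matched. Of the 7, 3 were called higher in AG (6.58% of all tested genes), 0 higher in GG (6.34%) and 4 were not called. All 7 had both AG libraries above both GG libraries (34.6% of tested genes at 5 CPM or more). ZNF91 (ENSMMUG00000003688), whose human counterpart represses SVA retrotransposons, stood at 52.2 and 58.6 CPM in AG and at 11.2 and 7.90 CPM in GG (a log2 change of -2.50 ± 0.35 SE, adjusted p = 0.0191). ZNF268 stood at 253 and 210 CPM in AG and at 91.3 and 75.9 CPM in GG (a log2 change of -1.43 ± 0.27 SE, adjusted p = 0.0313).

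ZNF808, which silences MER11 retroviral elements in human pancreas development, stood at 52.8 and 61.1 CPM in AG and at 24.6 and 18.5 CPM in GG (adjusted p = 0.0491). Its call did not hold with upper-quartile factors (0.0515) or with the replicate number as a block (0.0617). ZNF224 stood at 76.2 and 78.8 CPM in AG and at 46.9 and 26.7 CPM in GG (adjusted p = 0.117), uncalled in edgeR but called in DESeq2 (0.0464). ZNF445, which protects imprinted methylation together with ZFP57, stood at 22.9 and 20.4 CPM in AG and at 14.1 and 14.4 CPM in GG, uncalled (adjusted p = 0.314). ZNF274, which recruits SETDB1 to zinc finger gene clusters, stood at 29.5 and 29.6 CPM in AG and at 19.8 and 16.3 CPM in GG, uncalled (adjusted p = 0.223). ZNF350 completed the list with a log2 fold change of -0.85 and no call. The values of ZNF445, ZNF274 and ZNF350 were looked at outside the naming rule.

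Transcription and chromatin regulators without that role gave 15 members of 25 listed, with 7 below 5 CPM and 3 without a matched identifier. Of the 15, 4 were called higher in AG (6.58% of all tested genes), 0 higher in GG (6.34%) and 11 were not called. Their median log2 fold change was -0.99. After ZNF518B, those called were ZNF131, ZNF451 and ZNF410. ZNF131, a BTB domain factor, stood at 142 and 130 CPM in AG and at 49.1 and 46.6 CPM in GG (a log2 change of -1.47 ± 0.27 SE, adjusted p = 0.0294). The 2 libraries of each group lay close together.

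ZNF451, a SUMO ligase, stood at 133 and 99.7 CPM in AG and at 36.1 and 33.5 CPM in GG (a log2 change of -1.71 ± 0.31 SE, adjusted p = 0.0291). ZNF410, an activator of the chromatin remodeller gene CHD4, stood at 188 and 211 CPM in AG and at 54.7 and 82.0 CPM in GG (a log2 change of -1.51 ± 0.30 SE, adjusted p = 0.0359). CHD4 itself stood at 59.0 and 44.4 CPM in AG and at 63.4 and 40.5 CPM in GG, with overlapping groups and a log2 fold change of 0.04.

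Several widely expressed regulators are named here after their values were seen, and none was called in edgeR. ZNF143, an activator at many promoters, stood at 99.1 and 77.5 CPM in AG and at 41.0 and 35.8 CPM in GG (adjusted p = 0.0593). ZNF217, a corepressor component, stood at 165 and 143 CPM against 88.2 and 83.2 CPM, and ZNF281, known from pluripotency networks, at 82.4 and 94.3 CPM against 59.7 and 53.7 CPM. In these 3 genes the lower AG library was above the higher GG library, and DESeq2 called ZNF143 (0.00833) and ZNF217 (0.0489). ZNF532 and ZNF644 had positive log2 fold changes of 0.70 and 0.31 and were the exceptions on the list.

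ZNF proteins of RNA processing, ribosomes and the spindle gave 8 members of 12 listed, with 3 below 5 CPM and 1 without a matched identifier. Here 2 were called higher in AG (6.58% of all tested genes), 1 higher in GG (6.34%) and 5 were not called. ZNF473 (ENSMMUG00000010838), a U7 snRNP factor that takes part in histone mRNA 3′ end formation, stood at 123 and 197 CPM in AG and at 16.3 and 19.002 CPM in GG (a log2 change of -3.14 ± 0.35 SE, adjusted p = 0.0123). ZNF830, a splicing factor, stood at 159 and 91.4 CPM in AG and at 36.3 and 28.9 CPM in GG (a log2 change of -1.91 ± 0.39 SE, adjusted p = 0.0363). Both were lower in each GG library than in either AG library.

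ZNF706 (ENSMMUG00000006943), a small protein whose mouse counterpart restrains Klf4 and embryonic stem cell self-renewal, went the other way. It stood at 152 and 193 CPM in AG and at 561 and 586 CPM in GG (a log2 change of 1.77 ± 0.24 SE, adjusted p = 0.0173). ZNF638, which takes part in silencing of retroviral DNA, stood at 197 and 214 CPM in AG and at 108 and 113 CPM in GG. It was not called (log2 fold change -0.86 ± 0.24 SE, adjusted p = 0.0671), but passed without AG replicate 1 or 2 (0.0444 and 0.0416) and with DESeq2 (0.0221). ZNF326, of an RNA polymerase elongation and splicing complex, had a log2 fold change of -0.50 and was not called.

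The other ZNF gene called higher in GG was ZNF585A (ENSMMUG00000000107), a KRAB gene. It stood at 4.03 and 5.63 CPM in AG and at 33.3 and 28.5 CPM in GG, a log2 fold change of 2.71 ± 0.39 SE (adjusted p = 0.01996). Its AG mean was under 5 CPM, so it entered through GG. The next largest positive changes, ZNF334 (1.62), ZNF573 (1.54) and ZNF182 (1.50), were not called. ZNF573 stood at 8.56 and 5.18 CPM in AG and at 19.6 and 19.4 CPM in GG (adjusted p = 0.0750). With DESeq2, 6 ZNF genes were higher in GG, the added ones being ZNF682, ZNF177, ZNF182 and ZNF573.

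SCAN domain genes, which share a dimerization domain, gave 7 members of 14 listed and no call in edgeR (12.9% of all tested genes). At an unadjusted p under 0.05 were 2 (37.2% of tested genes at 5 CPM or more). The lowest p values were those of ZNF394, ZNF165, ZNF263 and ZNF174. ZNF394 stood at 108 and 86.9 CPM in AG and at 52.1 and 33.5 CPM in GG (adjusted p = 0.0824), and ZNF165 at 21.9 and 15.4 CPM against 8.20 and 7.37 CPM (adjusted p = 0.105). DESeq2 called both (0.0198 and 0.0412). The SCAN median log2 fold change was -0.94, and ZNF397 and ZNF449 were at 0.04 and 0.21.

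Of 4 ZNF genes reported as imprinted in human studies, only ZNF215 had a matched identifier. It stood at 72.3 and 43.2 CPM in AG and at 20.5 and 20.0 CPM in GG (a log2 change of -1.48 ± 0.38 SE, adjusted p = 0.0576). RNA was thus present in both groups. Its adjusted p lay under 0.05 without AG replicate 2 (0.00787), without a filter on low counts (0.0291), with a minimum mean of 10 CPM (0.0481) and with DESeq2 (0.00501).

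The 6 ZNF genes with the most reads did not move as a block. ZNF257 (ENSMMUG00000040273), a KRAB gene, had the most, with 2476 and 1303 CPM in AG and 527 and 301 CPM in GG (a log2 change of -2.16 ± 0.44 SE, adjusted p = 0.0366). ZNF92 came next at 523 and 464 CPM in AG and at 370 and 350 CPM in GG, uncalled (log2 fold change -0.42 ± 0.22 SE, adjusted p = 0.253). ZNF207, a kinetochore and spindle protein that binds BUB3, stood at 433 and 293 CPM in AG and at 356 and 300 CPM in GG.

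For ZNF207 the groups overlapped and the log2 fold change was -0.12 ± 0.29 SE. ZNF770 stood at 248 and 244 CPM in AG and at 101 and 124 CPM in GG (adjusted p = 0.0457, or 0.0569 with the replicate block). ZNF669 stood at 172 and 162 CPM in AG and at 190 and 136 CPM in GG, with a log2 fold change of -0.00 ± 0.27 SE. With ZNF706, the set thus held 2 genes called higher in AG, 1 called higher in GG and 3 not called. Over all tested genes with a mean of 50 CPM or more, 10.1% were called higher in AG and 8.37% higher in GG. Whether so small a set differs from these shares was not tested.

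The naming rule leaves out 16 called ZNF genes, all with AG above, at log2 fold changes of -3.39 to -1.46. They are given here after their values were seen. ZNF680 stood at 197 and 166 CPM in AG and at 41.9 and 48.8 CPM in GG, ZNF878 at 214 and 215 CPM against 64.6 and 53.5 CPM, and ZNF256 at 144 and 121 CPM against 24.0 and 34.0 CPM (adjusted p = 0.0191, 0.0191 and 0.0211). ZNF286A, ZNF136, ZNF420 and ZNF501 followed, with log2 fold changes of -2.23 to -2.09 and adjusted p of 0.0268 to 0.0310. ZNF121, ZNF827, ZNF574, ZNF304, ZNF875, ZNF419, ZNF639, ZNF773 and ZNF589 passed at 0.0418 to 0.04999. Of these, ZNF827, ZNF773 and ZNF875 had GG means under 5 CPM and entered through AG. The call of ZNF589 was lost with DESeq2 size factors, upper-quartile factors, the replicate block and without AG replicate 1 (0.0511 to 0.0557). ZNF827, ZNF574 and ZNF304 lost theirs without AG replicate 1 (0.0533, 0.0504 and 0.0519), ZNF773 without AG replicate 2 (0.0611) and ZNF875 with the block (0.0520).

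Some large differences between groups came with wide spread within a group and were not called in edgeR. ZNF577, on chromosome 19, stood at 7.50 and 36.8 CPM in AG and at 1.41 and 0.101 CPM in GG (a log2 change of -4.86 ± 1.35 SE, adjusted p = 0.0685). ZNF555 stood at 130 and 37.1 CPM in AG and at 13.9 and 20.4 CPM in GG (adjusted p = 0.0756). DESeq2 called both (6.62e-05 and 0.00259). Between the AG libraries 32 ZNF genes differed at least 2-fold, 16 in each direction, and between the GG libraries 17 did. ZNF248 was the most uneven in AG by ratio, at 0.708 and 10.4 CPM, and ZNF512 in GG stood at 12.7 and 2.56 CPM. All genes of this paragraph were chosen after their values were seen.

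At the threshold, ZNF557, ZNF662 and ZNF550 were just inside, with means of 5.12, 5.15 and 5.19 CPM. ZNF76, ZNF699 and ZNF668 were just outside, at 4.89, 4.86 and 4.85 CPM. ZNF557 stood at 7.36 and 6.03 CPM in AG and at 4.50 and 2.58 CPM in GG, and ZNF662 at 5.46 and 5.10 CPM against 5.18 and 4.88 CPM.

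ZNF genes were then placed by chromosome, by symbol, in a gene table of the macaque assembly T2T-MMU8v2.0, which is not the build of the counts (rheMac8), so that only chromosome and order were used. Of the 238, 215 (90.3%) were found, 98 of them on chromosome 19. On chromosome 19, 15 of 98 were called higher in AG (15.3%) and 0 higher in GG, with a median log2 fold change of -0.77. On the other chromosomes, 14 of 117 were higher in AG (11.97%) and 1 in GG (0.855%), with a median of -0.64. The 351 other genes of chromosome 19 at 5 CPM or more, of no zinc finger symbol, had a median of -0.04. Of them, 35 were called higher in AG (9.97%) and 14 in GG (3.99%). Over all tested genes at 5 CPM or more the shares were 8.26% and 7.5%. ZNF genes on and off chromosome 19 thus had similar negative medians, while genes of other kinds on that chromosome had a median near 0. The calls among those other genes still leaned to AG. These differences were not tested.

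Neighbours within clusters did not move as one. Runs of at least 4 members with no other protein-coding gene than ZNF genes in between numbered 5, with 35 members. In the chromosome 19 run from ZNF577 to ZNF616, the log2 fold changes of 8 members ranged from -4.86 (ZNF577) to 1.03 (ZNF615), and 5 were negative. ZNF616 was the only one called, while ZNF841, beside it in the order of members, stood at 27.2 and 25.1 CPM in AG and at 33.3 and 33.9 CPM in GG. The run from ZNF224 to ZNF180 was more even, with 7 of 7 negative, from -1.39 (ZNF227) to -0.42 (ZNF233), and 0 called (edgeR). From ZNF566 to ZNF829, 7 of 8 were negative and ZNF875 was called. From ZNF749 to ZNF416, 5 of 6 were negative and ZNF773 was called. The run on chromosome 11 from ZNF268 to ZNF891 had 3 of 6 negative, with ZNF268 called. Of all 238 ZNF genes, 78.6% were negative and 14.3% called higher in AG. Over all tested genes these shares were 48.9% and 6.58%. Whether the runs differ from other ZNF genes was not tested.

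**Figure D5:**
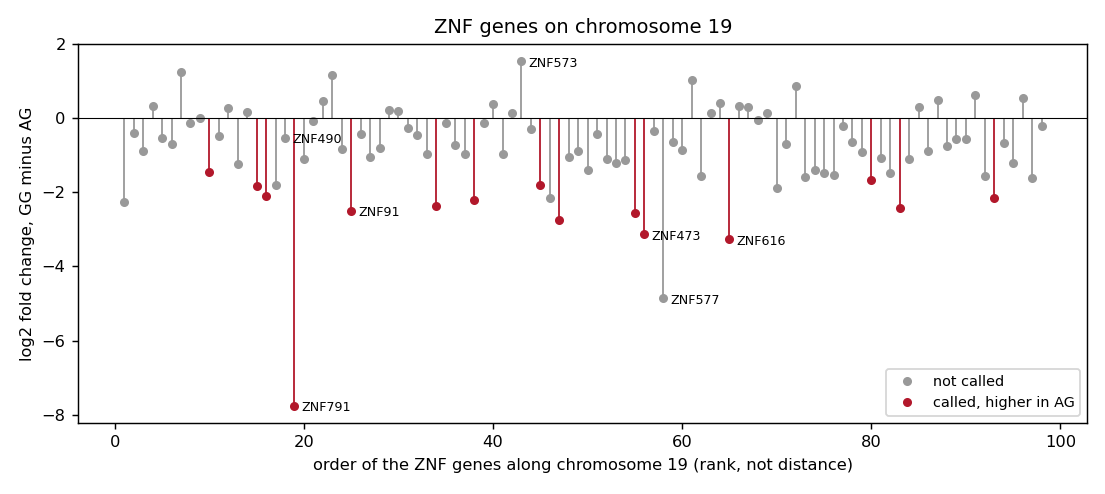
Log2 fold change, GG minus AG (y), of the 98 ZNF genes on chromosome 19 in their order along the chromosome (x, rank), with the 15 called higher in AG in red and the others in grey. ZNF791 at -7.75 stands between ZNF490 at -0.54 and ZNF333 at -1.09, and ZNF577 at -4.86 was not called.

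The listed partner genes of KRAB proteins were mostly not called. The list holds genes through which KRAB proteins silence chromatin, and also ZFP57, itself a KRAB protein. All 31 listed genes were tested, with a median log2 fold change of -0.17. Of them, 2 were called higher in AG (6.45%, against 6.58% of all tested genes) and 28 were not called. The 1 called higher in GG (3.23%, against 6.34%) was ZFP57. Neither share was above that of all tested genes. CBX5, which encodes HP1 alpha, stood at 259 and 199 CPM in AG and at 19.9 and 25.3 CPM in GG (a log2 change of -3.31 ± 0.32 SE, adjusted p = 0.00871). MPHOSPH8, a subunit of the HUSH silencing complex, stood at 377 and 409 CPM in AG and at 109 and 89.1 CPM in GG (a log2 change of -1.95 ± 0.25 SE, adjusted p = 0.0152). The other HP1 genes, CBX1 and CBX3, had log2 fold changes of -0.01 and -0.12 and were not called.

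TRIM28, the corepressor itself, stood at 137 and 92.2 CPM in AG and at 53.7 and 44.3 CPM in GG, which gave no call (log2 fold change -1.19 ± 0.33 SE, adjusted p = 0.0692 in edgeR). It passed with DESeq2 (0.0139), without a filter on low counts (0.0415) and without AG replicate 2 (0.0114). SETDB1 stood at 32.6 and 28.0 CPM in AG and at 35.9 and 33.8 CPM in GG (a log2 change of 0.23 ± 0.31 SE). ZFP57, a KRAB protein of imprint protection, was the one called higher in GG, at 23.7 and 40.0 CPM against 1.90 and 4.44 CPM (adjusted p = 0.0269). Neither TRIM28 nor SETDB1 was called in edgeR, and the difference between them was not tested.

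Most zinc finger genes of other symbols had a negative log2 fold change. Of 37 ZSCAN, ZKSCAN, ZFP, ZBTB and ZIM genes with a mean of at least 5 CPM, 8 were called higher in AG (6.58% of all tested genes), 1 (ZFP57, also among the partners) higher in GG (6.34%) and 28 were not called. The median log2 fold change was -0.80, and 29 of 37 were negative. ZSCAN genes contributed 5 of the 8 from 9 members, among them the genome activation gene ZSCAN4. ZSCAN16, chosen after its values were seen, stood at 19.1 and 11.5 CPM in AG and at 0.141 and 0.471 CPM in GG (a log2 change of -5.54 ± 0.78 SE, adjusted p = 0.0190). ZBTB genes had 1 of 16 called, ZBTB17, the MYC partner MIZ1, at 18.5 and 20.5 CPM against 3.37 and 5.01 CPM.

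Several marker genes of genome activation and of cell lineages also differed between the groups. For comparison, 6.58% of all tested genes were called higher in AG and 6.34% higher in GG. Summed CPM of the 5 matched genome activation markers was 7571 and 5601 in AG and 2292 and 1697 in GG, and 5 of 5 were called higher in AG. KHDC1L alone made up 5354, 4189, 2287 and 1694 CPM of these sums. The other genes, ZSCAN4, CCNA1, TPRX1 and LEUTX, summed to 2216 and 1411 CPM in AG and to 5.17 and 3.39 CPM in GG. Summed trophectoderm markers, 6 matched, were 152 and 137 CPM in AG and 370 and 671 CPM in GG, with 4 called higher in GG. TFAP2C, the largest part of the AG sums, went the other way without a call, at 104 and 113 CPM in AG and 47.5 and 60.8 CPM in GG. GATA3 had a log2 fold change of -0.06 and was not called. Of the 5 matched inner cell mass markers, which summed to 427 and 499 CPM in AG and 620.01 and 641 CPM in GG, KLF17 (log2 fold change -4.23) and DPPA4 (-1.98) were called higher in AG and TFCP2L1 (3.79) higher in GG, while POU5F1 and NANOG were not called. Of the 5 matched blood markers, PTPRC was called higher in AG, and their sum was 196 and 115 CPM in AG and 106 and 96.1 CPM in GG. Without PTPRC the blood sums were 55.5 and 47.0 CPM in AG and 99.6 and 92.7 CPM in GG, the other way round. The part of these in the ZNF differences was not tested.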

How the data were processed

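The authors deposited 1 table of unscaled estimated counts, with Ensembl macaque genes in rows and libraries in columns. Per the submitters' processing notes, the build is rheMac8 and the tools include Salmon 0.12.0, STAR 2.6.0c and Trim Galore. The sources used here give no annotation, strand setting or filter. From 30.0% to 32.2% of values per library were not whole. Counts were rounded and tested with edgeR 4.0.16 in R 4.3.3 (quasi-likelihood F test on group, filterByExpr with minimum count 10 and minimum total 15, TMM factors of 0.987 to 1.03, Benjamini-Hochberg over all tested genes, threshold 0.05). SEs are those implied by F. CPM uses column totals. The test was checked on simulated data. Alternatives were DESeq2 1.42.0, other scalings, filters and membership thresholds, each library left out and a replicate block.

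Symbols were matched by identifier (14654 of 21314 genes, 68.8%), and no ZNF symbol had several identifiers. Members and lists were chosen with earlier results of these data known. Named by rule were the 10 largest called changes per direction (mean of at least 10 CPM, groups apart), the 6 genes with most reads, 3 on each side of the threshold, 4 with the smallest p per role list, called KRAB partners, TRIM28, SETDB1 and ZFP57. Protein features of KRAB genes were not analysed here. With 2 libraries per group, intervals cover counting error only.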

Additional observations from a re-analysis of the deposited data

How the results depend on the processing

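No called ZNF gene changed sign in any of the 11 alternative fits that tested it. The groups did not overlap in any called gene, so these fits could hardly change a sign. ZNF827, ZNF773 and ZNF875 were not tested with a minimum mean of 10 CPM. Of the 36 called, 31 and 35 remained without AG replicate 1 and AG replicate 2, 32 with the replicate block, and 3 without GG replicate 1 or GG replicate 2. In those last fits the lone GG library is assumed to vary like the AG pair. Leaving out 1 library in turn gave 3 to 73 ZNF genes higher in AG and 0 to 6 higher in GG, 0 to 10 and 0 to 4 KRAB partners, and 3 to 11 and 0 to 2 genes of other families. The median log2 fold change of ZNF genes lay between -0.82 and -0.65 in these fits and was -0.83 with a minimum mean of 10 CPM, where 179 of them were tested. DESeq2 called 76 ZNF genes higher in AG (12.9% of all tested genes) and 6 in GG (12.2%). It also called 5 and 2 partners, and 11 and 2 genes of other families. Without a filter on low counts, 50 ZNF genes were higher in AG (7.45% of all tested genes) and 2 in GG (6.84%). So were 4 and 2 partners, and 8 and 2 genes of other families. With at least 5 CPM required in each group, 26 ZNF genes were higher in AG and 1 in GG. Replicate numbers are shared between groups, but the deviations of same-numbered libraries correlated at only 0.0986 and nothing shows that the numbers pair them. With the replicate block, 33 ZNF genes were higher in AG (6.22% of all tested genes) and 2 in GG (6.61%). So were 3 and 2 partners, and 7 and 2 genes of other families. Uncalled genes near 0 changed sign. Over the fits with 1 library left out, ZNF207 ranged from -0.41 to 0.21, ZNF662 from -0.13 to 0.036, ZNF550 from -0.43 to 0.76 and ZNF669 from -0.25 to 0.18. With upper-quartile factors ZNF669 was at 0.0099. The causes were not tested. With 2 libraries per group, an exact permutation test of a single value cannot go below 0.333.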

Other observations

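X-linked ZNF genes were 6 in number and none was called in edgeR (12.9% of all tested genes). At an unadjusted p under 0.05 were 2, ZNF157 and ZNF182 (37.2% of tested genes at 5 CPM or more). ZNF157 stood at 34.3 and 8.16 CPM in AG and at 1.59 and 5.04 CPM in GG. ZNF182 stood at 3.89 and 4.13 CPM in AG and at 11.3 and 10.9 CPM in GG. ZNF449, ZNF41, ZNF674 and ZNF280C had log2 fold changes of -0.58 to 0.21.

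Below the threshold lay 95 further ZNF genes, of which 69 had enough counts to be tested. Their median log2 fold change was -0.47, and 46 were negative. In edgeR, 0 were called higher in AG (6.58% of all tested genes) and 1 higher in GG (6.34%). That gene, ZNF385D, stood at 0.354 and 0.157 CPM in AG and at 3.23 and 2.83 CPM in GG (a log2 change of 3.60 ± 0.81 SE, adjusted p = 0.0444). The shares of all tested genes cover every level, and 8574 of those 13227 genes had a mean of at least 5 CPM. Fewer reads leave less power to call a gene.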
